A study of Mus musculus with 2 samples.

Results

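The peaks described here are the sites at which FLAG-tagged Creb3l2 was enriched on the genome of AtT-20 cells, a mouse pituitary corticotrope line that makes pro-opiomelanocortin. The cells had been infected with a retrovirus that carried the cleaved, active form of Creb3l2 joined to a FLAG tag, and were used as a selected pool of colonies, not as 1 clone. Chromatin was precipitated with the FLAG M2 antibody and sequenced (ChIPseq), and the peaks were called over a FLAG ChIPseq of AtT-20 cells that did not carry the tag. All 6484 rows of this peak list were kept, out of 6742 peaks in the series. The remaining 258 peaks come from a ChIPseq of XBP1 in AtT-20 cells.

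Each factor was represented by 1 library, and the Creb3l2 library was made from pooled precipitations. There is therefore no replicate spread and no test here. Shares are given with 95% Wilson intervals, which cover counting error only. The tagged protein was expressed from a retrovirus, and its level beside that of the endogenous factor is not given in the sources used here.

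Creb3l2 is a basic leucine zipper (bZIP) factor of the OASIS family. These factors sit in the membrane of the endoplasmic reticulum (ER), and proteolysis in the Golgi frees the part that enters the nucleus and binds DNA. The family is best known for driving genes of ER to Golgi transport in secretory cells such as chondrocytes. bZIP factors of this kind bind sites with an ACGT core, and the response element used for Creb3l2 in the study's reporter has such a core. Corticotropes store and release large amounts of hormone, and the study asked which genes Creb3l2 binds in them.

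The reporter sequence is shown because its element was searched for below. It holds 3 copies of a unit of 18 bases, and the capitals mark TGACGTGG.
Creb3l2 response element of the reporter: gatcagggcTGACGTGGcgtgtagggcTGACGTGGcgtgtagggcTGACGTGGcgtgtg

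The next sequences are the 150 bases that precede the annotated transcription start site (TSS) of genes with strong promoter peaks, from RefSeq (GRCm38.p6), written on the strand of the gene. The first 6 carry an ACGT site and Mlec carries none in these bases. The summit of the Mlec peak lay 301 bp upstream of a TSS, outside the bases printed. The capitals mark TGACGTG, the core CCACGT, the E-box CACGTG and the palindromic TGACGTCA on either strand, and these motifs overlap each other.
Sec24c, chr14:20674171-20674320, plus strand: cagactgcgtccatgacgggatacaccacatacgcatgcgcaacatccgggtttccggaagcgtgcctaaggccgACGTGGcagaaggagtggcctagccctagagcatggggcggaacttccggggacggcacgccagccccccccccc
Zfp142, chr1:74588029-74588178, minus strand: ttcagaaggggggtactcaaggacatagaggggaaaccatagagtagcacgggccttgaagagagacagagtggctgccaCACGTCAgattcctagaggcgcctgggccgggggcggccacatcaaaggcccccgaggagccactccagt
Sec16b, chr1:157506646-157506795, plus strand: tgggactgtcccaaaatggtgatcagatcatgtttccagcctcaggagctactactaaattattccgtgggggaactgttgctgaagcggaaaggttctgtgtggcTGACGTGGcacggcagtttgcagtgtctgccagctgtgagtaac
Copb2, chr9:98563581-98563730, plus strand: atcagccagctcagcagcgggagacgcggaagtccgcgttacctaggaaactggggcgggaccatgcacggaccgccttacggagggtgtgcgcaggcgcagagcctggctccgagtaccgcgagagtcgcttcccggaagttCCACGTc
Srpr, chr9:35211053-35211202, plus strand: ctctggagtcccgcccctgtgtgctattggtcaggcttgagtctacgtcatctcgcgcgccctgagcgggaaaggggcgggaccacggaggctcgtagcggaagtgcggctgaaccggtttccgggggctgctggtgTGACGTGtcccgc
Atg5, chr10:44268189-44268338, plus strand: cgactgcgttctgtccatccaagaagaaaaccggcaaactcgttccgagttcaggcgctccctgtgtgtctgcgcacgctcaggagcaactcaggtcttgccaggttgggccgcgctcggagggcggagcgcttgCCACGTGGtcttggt
Mlec, chr5:115158177-115158326, minus strand: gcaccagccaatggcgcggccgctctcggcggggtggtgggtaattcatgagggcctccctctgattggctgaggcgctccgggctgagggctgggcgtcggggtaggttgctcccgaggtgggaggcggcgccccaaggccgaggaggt

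Of 86 named genes with a promoter peak and a promoter sequence, 15 (17.4%) held 1 or more of these motifs in the 150 bases. The share was 16.7% (475 of 2842) over all RefSeq promoters with a summit within 1 kb of their TSS and 8.81% (1256 of 14253) over promoters without. Most bound promoters thus show none of these letters in this window, which says nothing about sites outside it.

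The peak positions are those of mouse genome build mm9, while the annotation used here is of GRCm38. The peaks were therefore placed on GRCm38 by constant shifts, 1 for each of 94 stretches of chromosome, and 5775 of the 6484 peaks could be placed. The other 709 (10.9%) were left out of every statement about genes, locations and motifs. Their tag density, with a median of 114 tags per kb, was close to the 118 of the placed peaks. After placement, 48.5% of the summits lay within 1 kb of the start of a protein-coding transcript, against 5.97% and 5.58% when the same positions were moved 100 kb up or down.

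Since the shifts were estimated by lining up summits with TSSs, this share is partly built in. Peaks left out of the estimate gave 43.8% (95% interval 42.0 to 45.7, n = 2780). The XBP1 peaks, which were not used to set the shifts, gave 44.4% (38.1 to 50.8, n = 232). Of all 258 XBP1 peaks, however, 124 (48.1%) overlap Creb3l2 peaks, so this set is only partly independent of the estimate. The unit of the reporter occurred once on chromosome 14, 59 bp from a placed Creb3l2 summit in an intron of Kcnma1, a potassium channel gene (139 tags, 138 tags per kb, 7.17-fold). For 2639 left-out peaks, shifts estimated from only the other peaks were compared with those used. In 95.9% of cases they were within 300 bp, and among these cases alone the median difference was 17.0 bp. The shifts used were estimated from all peaks, including those of the other estimate, so these differences may understate the error. Values that rest on distances of about 100 bp or less carry this error.

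The peaks had a median length of 950 bp (interquartile range 827 to 1135) and a median of 115 sequence tags (87.0 to 164). Tag density, which is tags divided by peak length, ran from 79.1 to 705 tags per kb with a median of 118. Fold enrichment over the untagged cells, as given by the peak caller, had a median of 4.25 (3.70 to 5.03) and a maximum of 31.6. Only 1654 peaks (25.5%) were enriched 5-fold or more and 79 (1.22%) 10-fold or more. The list is thus long and mostly of modest enrichment, with a small set that stands out.

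**Figure D1:**
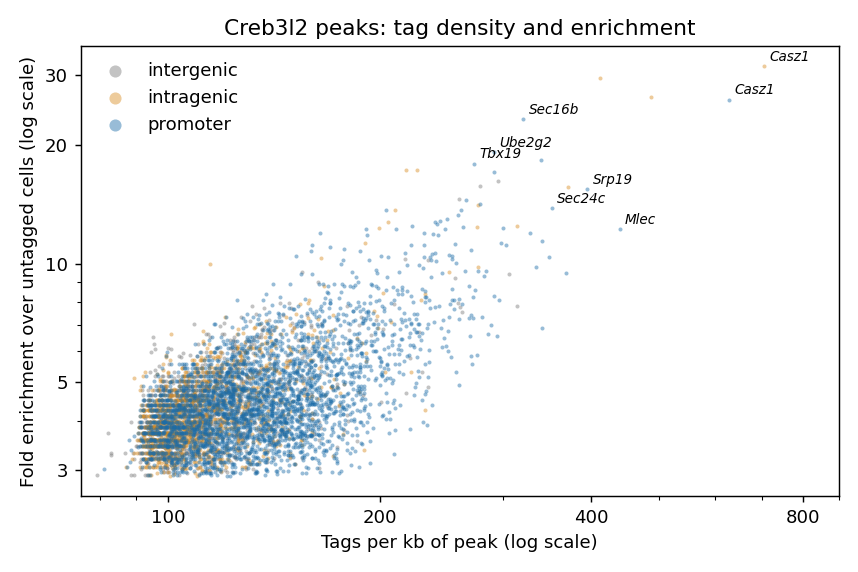
Each point is 1 of the 5775 placed Creb3l2 peaks, with tags per kb of peak on the x axis and fold enrichment over untagged cells on the y axis, both on log scales, and colour for the location of the summit. Most peaks lie near 118 tags per kb and 4.25-fold, and the labelled peaks at Casz1, Mlec, Srp19, Sec24c, Sec16b, Ube2g2 and Tbx19 lie apart from them.

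The peak with the most tags per kb was in a coding exon of Casz1, which encodes a zinc finger factor (chr4:148311972-148313780 in mm9, 1275 tags, 705 tags per kb, 31.6-fold). Of the 67 placed summits in coding exons, 11 were in Casz1, while no other gene held more than 1, and Casz1 took 4 of the 5 densest peaks of the list. Whether the Casz1 peaks reflect binding of Creb3l2 at this gene was not tested. Outside Casz1, the densest peak lay 301 bp upstream of a TSS of Mlec, whose product malectin binds glycans of new glycoproteins in the ER (chr5:115607832-115609414, 695 tags, 439 tags per kb, 12.2-fold). It was followed by the promoter peak of Srp19, a protein of the signal recognition particle (552 tags, 395 tags per kb, 15.4-fold), with the summit 44 bp upstream of the TSS.

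The other promoter peaks among the 15 densest were at genes of varied function. Tmem39a, which encodes an ER membrane protein, had 470 tags at 368 tags per kb. Sec24c, a cargo adaptor of the COPII coat that buds from the ER, had 469 tags at 351 tags per kb and was enriched 13.8-fold. Arf1, the GTPase that recruits the COPI coat to the Golgi, had 500 tags at 348 tags per kb. Cltc, the clathrin heavy chain, had 670 tags at 341 tags per kb but a lower enrichment of 6.87-fold.

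Zfp260 (340 tags per kb), Zfp142 (334) and Anapc5 (327), the last a subunit of the anaphase-promoting complex, completed the promoter peaks among the 15 densest whose closest TSS was protein-coding. The peak of rank 7 was in an intron of Rbm20 at 13.6 kb from its TSS (371 tags per kb, 15.7-fold). The peak of rank 13 was at the start of an unnamed non-coding transcript, 86.0 kb from the closest protein-coding TSS, that of L3mbtl4 (339 tags per kb, 18.3-fold). Ranked by fold enrichment, Sec16b, which organises ER exit sites, came first outside Casz1 with 23.2-fold. Ube2g2, a ubiquitin conjugating enzyme of ER-associated degradation, followed with 19-fold (290 tags per kb).

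Of the 5775 placed summits, 3099 (53.7%, interval 52.4 to 54.9) lay within 1 kb of a TSS of any annotated transcript. A further 1200 (20.8%) were in introns, 67 (1.16%) in coding exons, 32 (0.554%) in untranslated exons and 1377 (23.8%, 22.8 to 25) were intergenic. As placed, promoter summits were close to the start site, with 1982 of all placed summits (34.3%) within 100 bp and only 233 (4.03%) more than 500 bp from it. Beyond promoters, the median distance to a TSS was 10.5 kb, and 295 summits (5.11%) were more than 50 kb away.

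As placed, promoter summits lay mainly just upstream of the TSS. Here the starts of all transcripts of protein-coding genes were used, a wider set than the protein-coding transcripts of the placement. Of the 2916 summits within 1 kb of such a TSS, 1931 (66.2%, 64.5 to 67.9) were upstream of it. Their median position was 27 bp upstream (written -27, with quartiles of -100 and 9 bp), and 81.1% were within 200 bp. Each shift was set by lining up summits with TSSs, so this closeness is partly built in. The median offset is within the placement error, and the upstream share was not checked on left-out peaks.

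**Figure D2:**
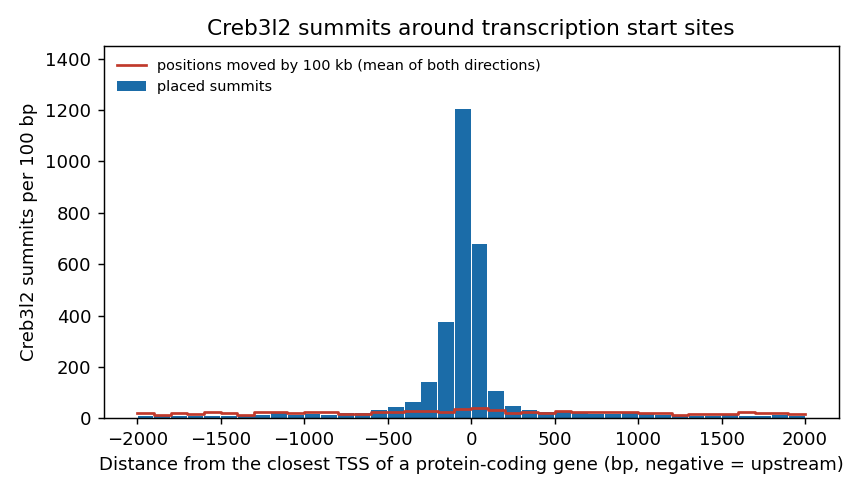
Bars give the number of placed Creb3l2 summits per 100 bp by distance from the closest TSS of a protein-coding gene, with negative distances upstream, and the line gives the same count after all positions were moved by 100 kb, as the mean of both directions. The summits pile up within 200 bp of the TSS, with more upstream than downstream, while the moved positions stay under 42 per 100 bp. The pile-up is partly built in, since the shifts were set by lining up summits with TSSs.

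The share at promoters fell down the list. The list was ordered by tags per kb and divided into 10 bins of equal size. In bin 1, with the most tags per kb (170 to 705), 531 of 612 placed summits (86.8%, 83.8 to 89.2) were at promoters. In bin 5 it was 56.5% (52.5 to 60.5). In bin 10 (79.1 to 96.7 tags per kb) it was 26.0% (22.6 to 29.8), with 37.9% intragenic and 36.1% intergenic. Median fold enrichment changed less over the same range, from 6.17 to 3.72.

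**Figure D3:**
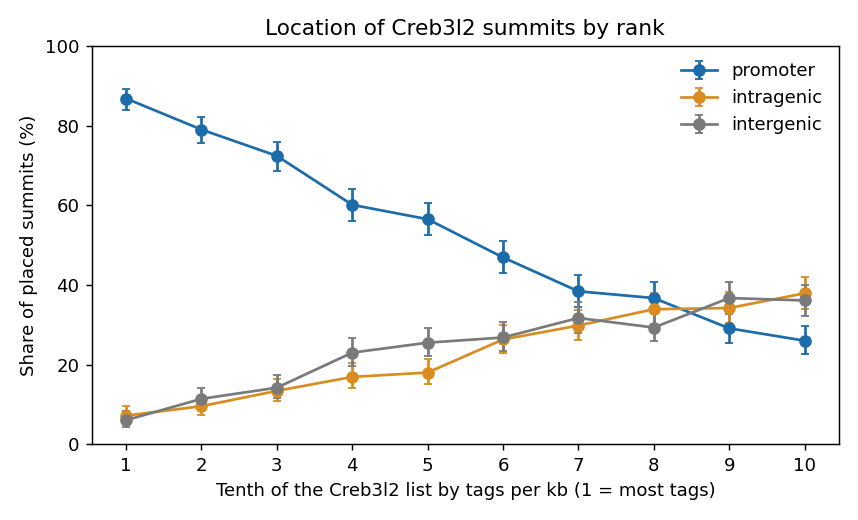
Points give the share of placed Creb3l2 summits at promoters (within 1 kb of a TSS), within genes and between genes for each of the 10 bins of the list, ordered by tags per kb, and bars are 95% Wilson intervals. Promoters fall from 86.8% in bin 1 to 26.0% in bin 10.

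Promoter peaks were also wider and denser than the others. Their median length was 1022 bp, against 881 bp for intragenic and 890 bp for intergenic peaks. Their median density was 131 tags per kb, against 107 and 109. Fold enrichment differed little, with medians of 4.38, 4.10 and 4.11.

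At the level of genes, 3330 of the 18452 protein-coding genes in the placed stretches (18.0%, 17.5 to 18.6) had a Creb3l2 summit within 1 kb of a TSS. These genes are called bound below, and 18.0% is the share against which each list of genes is read. Of the peaks at promoters, 487 lay within 1 kb of a TSS of more than 1 gene. Bound genes had a median of 136 tags per kb (115 to 162) and a median enrichment of 4.41-fold.

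Bound promoters were rich in CpG dinucleotides. In 5 equal classes of genes by the number of CpGs in the 300 bp around the TSS, the bound share was 1.25%, 6.83%, 24.7%, 30% and 27.4% from the class with the fewest to that with the most. The lists were therefore also read within the 2 upper classes, in which 2111 of 7351 genes (28.7%) were bound. There, 21 of 31 lists had a share above 28.7%, and 13 had an interval wholly above it. Expression was not measured in this library, and its part in the shares was not tested.

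The transport steps between ER and Golgi had the highest shares. Of genes for the COPI coat and Golgi ARF proteins, which return vesicles to the ER and shape the Golgi, 40 of 52 (76.9%, 63.9 to 86.3) were bound, with a median enrichment of 6.25-fold. Arf1, the ARF GTPase activator Arfgap1 (285 tags per kb), and the coat subunits Cope (279) and Copb2 (276, 9.58-fold) had the densest peaks. Arf2, Arf3 and Arfgef2 had no summit within 5 kb.

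Of genes for COPII vesicles and ER export, 43 of 61 (70.5%, 58.1 to 80.4) were bound. The cargo adaptors Sec24c (351 tags per kb) and Sec24a (277 tags per kb, 14.2-fold), the exit site protein Sec16b (320) and the outer coat subunit Sec31a (281) were densest. The inner coat subunit Sec23a had 300 tags, at 219 tags per kb and 8.53-fold, and Sec22b, a SNARE of ER to Golgi fusion, had 245 tags, at 222 tags per kb and 11.2-fold. Cnih1, Kdelr3 and Lman1l had no summit within 5 kb. In the 2 upper CpG classes, the shares were 73.2% for the COPI list and 70.6% for the COPII list.

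Genes of protein entry and glycosylation were bound in about the same range as translation factors, described below. Of genes for the oligosaccharyltransferase and N-glycan synthesis, which attach sugar chains to proteins entering the ER, 26 of 43 (60.5%, 45.6 to 73.6) were bound. They were led by Gmppa, of GDP-mannose synthesis (253 tags per kb, 10.5-fold), the catalytic subunit Stt3a (246), its partner Ostc (245) and Dpagt1 (240), which starts the sugar chain. Of the translocon and TRAP genes, 16 of 31 (51.6%, 34.8 to 68.0) were bound, among them Serp1 (236 tags per kb), Ssr3 (173, 307 tags), Sec61b (167) and Tram1 (163).

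Of signal recognition particle and signal peptidase genes, 8 of 17 (47.1%, 26.2 to 69.0) were bound. Srp19 was followed by Srpr, a subunit of the receptor for the particle (230 tags per kb), and Srp68 (221). Asna1, Ccdc47 and Emc10 of the translocon list and Spcs1, Spcs2 and Sppl2a of the peptidase list had no summit within 5 kb.

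The shares were lower for folding and disposal of ER proteins. Of ER chaperones and protein disulfide isomerases, 15 of 38 (39.5%, 25.6 to 55.3) were bound, with Serp1, Txndc11 (201 tags per kb), Pdia5 (192, 11.8-fold) and Ppib (180) the densest, while Canx, which encodes calnexin, had no summit within 5 kb. Of genes of ER-associated degradation, 13 of 33 (39.4%, 24.7 to 56.3) were bound, led by Ube2g2 (290 tags per kb), Aup1 (191) and Vimp (189). Derl1 and Derl2, which encode derlins of the export channel, had no summit within 5 kb.

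Over the 7 lists of the secretory pathway together, 160 of 274 genes (58.4%, 52.5 to 64.1) were bound. Of the sensors and factors of the unfolded protein response, 8 of 24 (33.3%, 18.0 to 53.3) were bound, an interval whose lower end is at the background. Those with the densest peaks were Atf4 (230 tags per kb), Creb3 (223), the sensor kinase gene Eif2ak3 (209, 8.07-fold) and Ppp1r15b (194).

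Over the 7 translation lists, 113 of 237 genes (47.7%, 41.4 to 54.0) were bound, an interval that overlaps that of the secretory pathway. In the 2 upper CpG classes the shares were 51.9% (43.5 to 60.1) for translation and 56.5% (49.3 to 63.4) for the secretory pathway. The peaks of bound translation genes had a median of 155 tags per kb and 4.53-fold. The secretory pathway genes had nearly the same density, 156 tags per kb, but a higher median enrichment of 5.35-fold. With only peaks enriched 5-fold or more, 32.5% of secretory pathway genes (27.2 to 38.2) and 15.6% of translation genes (11.5 to 20.8) were bound, against 5.82% of all genes. Of the spermatogenesis genes, the study's control set, 65 of 406 (16%, 12.8 to 19.9) were bound, which is close to the background.

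Among translation genes, 9 of 14 elongation factors (64.3%, 38.8 to 83.7) and 24 of 44 initiation factors (54.5%, 40.1 to 68.3) were bound. The elongation factor genes Eef1g (253 tags per kb, 8.09-fold), Tufm (194, 8.29-fold) and Eef1b2 (194, 293 tags) and the initiation factor genes Eif4a2 (259), Eif2a (236), Eif2s1 (228) and Eif1ad (214) had the densest peaks. Several of these lay in shared promoters. The peak of Eif2a was also that of Serp1, the peak of Eif2s1 that of Atp6v1d, and the peak of Eef1b2 that of Ndufs1. Eif2b4, a subunit of the exchange factor for eIF2, had 283 tags at 187 tags per kb, 34 bp from its TSS. Denr, Eif1 and Eif1ax had no summit within 5 kb.

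Of cytosolic ribosomal proteins, 22 of 48 of the large subunit (45.8%, 32.6 to 59.7) and 14 of 29 of the small subunit (48.3%, 31.4 to 65.6) were bound. Rpl27 (234 tags per kb), Rpl32 (207) and Rpl10 (203) led the first and Rps26 (270), Rps19 (214) and Rps20 (201) the second. Enrichment at these genes was modest, with medians of 4.23-fold and 4.46-fold. Rpl38 (282 tags, 147 tags per kb, 4.54-fold) and Rpl12 (131 tags, 128 tags per kb, 4.06-fold at the summit closest to its TSS) were typical of them. Rpl10a, Rpl14, Rps10 and Rps15 were among those with no summit within 5 kb.

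The mitochondrial ribosome was bound at a like share, 24 of 57 genes (42.1%, 30.2 to 55.0), led by Mrpl17 (273 tags per kb, 8.55-fold) and Mrpl21 (252, 7.88-fold). Of aminoacyl tRNA synthetases, which load tRNAs with amino acids, 17 of 39 (43.6%, 29.3 to 59.0) were bound. Tars2 (187 tags per kb), Lars (185), Ears2 (177) and Mars (171) were the densest, and Gars (155 tags, 155 tags per kb, 5.38-fold) and Tars (207 tags, 168 tags per kb, 4.45-fold) were also bound. Aars, Aarsd1 and Cars had no summit within 5 kb. Of the 6 termination factors tested, 3 were bound, Gspt1 (232 tags per kb), Etf1 (177) and Ict1 (165).

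Lists outside translation and secretion were not all near the background. RNA polymerase I and ribosome biogenesis genes were bound in 31 of 58 cases (53.4%, 40.8 to 65.7), proteasome subunits in 18 of 36 (interval 34.5% to 65.5%) and core spliceosome genes in 33 of 67 (49.3%, 37.7 to 60.9). Oxidative phosphorylation subunits followed with 26 of 65 (interval 29.0% to 52.1%), tRNA processing genes with 15 of 38 (39.5%) and genes of lysosome and autophagy with 22 of 56 (39.3%, 27.6 to 52.4). Brix1 (233 tags per kb), Psmd3 (253), Snrnp200 (256, 11.2-fold), Ndufs7 (234), Trmt2a (228) and Atg13 (257, 10.1-fold) led these 6 lists. Their intervals overlap those of the translation lists, so a difference from ribosomal proteins or tRNA synthetases was not detectable with lists of this size.

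Other lists were at or below the background. Glycolysis genes were bound in 2 of 31 cases (6.45%, 1.79 to 20.7), Pdk1 and Pfkm, and collagen and cartilage matrix genes in 3 of 42 (7.14%, 2.46 to 19.0), Plod3, P3h1 and Sparc. None of 31 replication-dependent histone genes was bound, which allows a share of up to 11% by the Wilson interval. Their promoters had a median of only 9 CpGs, and the class of all genes with 4 to 12 CpGs had a bound share of 6.83%. Cholesterol and lipid synthesis genes (8 of 38, 21.1%), integrated stress response targets (8 of 28, 28.6%), immediate-early genes driven by CRE sites (8 of 31, 25.8%) and prohormone processing and secretory granule genes (8 of 37, 21.6%) had intervals that include 18.0%. In all, 26 of 31 lists had a higher share than all genes. Within the 2 upper CpG classes, the count was 21. There, the intervals of signal recognition particle genes (33.3%, 13.8 to 60.9), ER chaperones (37.5%, 21.2 to 57.3), ER-associated degradation (40%, 23.4 to 59.3) and oxidative phosphorylation (34.6%, 19.4 to 53.8) included the 28.7% of all genes. Among translation lists, so did those of large-subunit (44.4%, 27.6 to 62.7) and mitochondrial ribosomal proteins (44.8%, 28.4 to 62.5) and termination factors (66.7%, 20.8 to 93.9). The interval of the unfolded protein response list (35.7%, 16.3 to 61.2) included it too.

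**Figure D4:**
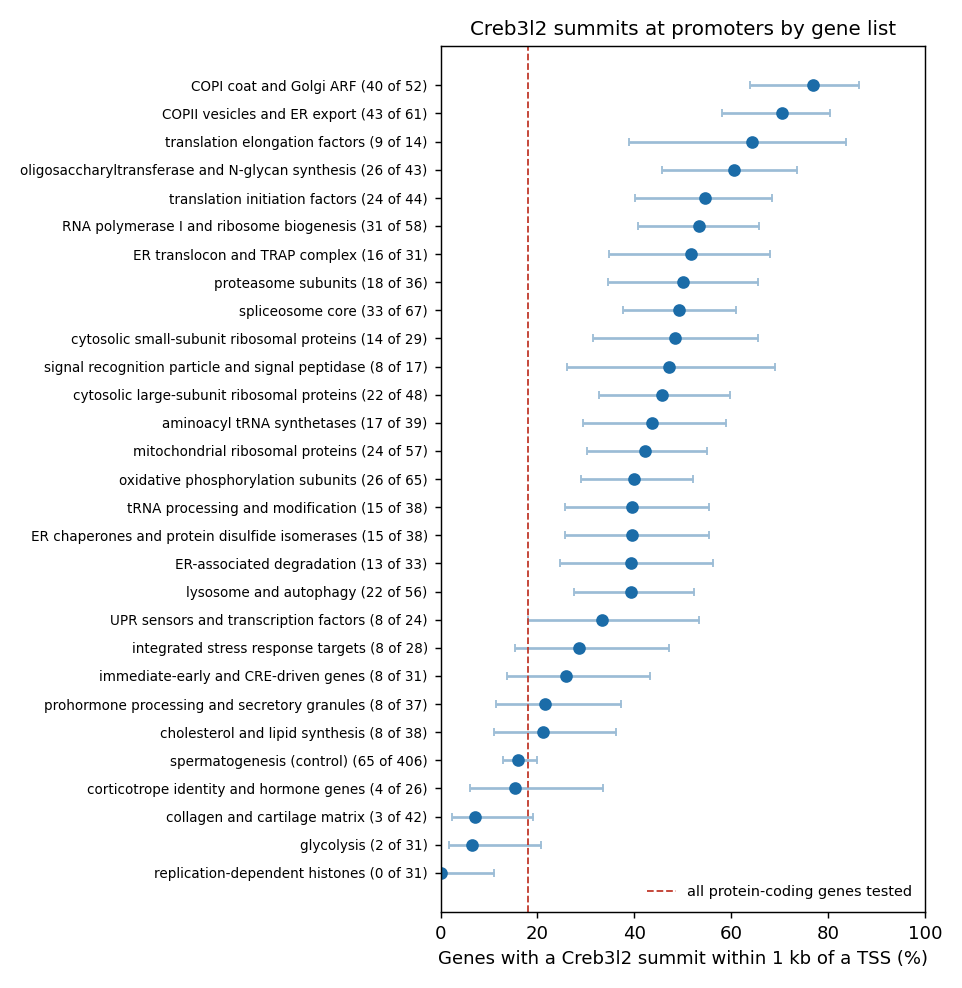
Points give the share of genes in each list with a Creb3l2 summit within 1 kb of a TSS, with 95% Wilson intervals and the counts beside the names, and the dashed line marks the 18.0% of all protein-coding genes tested. The 2 lists with fewer than 10 genes tested are not drawn. COPI and COPII lists are highest, and glycolysis, collagen and histone lists lowest.

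Genes of the corticotrope identity list were bound in 4 of 26 cases (15.4%, 6.15 to 33.5), an interval that includes the 18.0% of all genes. Of the 4, 2 had some of the most enriched peaks. The members were chosen with earlier results of these data known, so the place of Casz1 among them is no separate evidence of a link to identity. Tbx19, which encodes the corticotrope factor Tpit, had 250 tags over 919 bp (272 tags per kb, 17.9-fold, rank 42), with the summit 111 bp from a TSS. Casz1 was the other, and whether its peaks reflect binding at the gene was not tested. Usp8, mutated in corticotrope tumours, had 194 tags per kb and Nr3c1, the glucocorticoid receptor gene, 121. Creb3l2 itself had no promoter summit, and its only summit was in an intron, 41.2 kb from its TSS (219 tags, 186 tags per kb, 6.47-fold). Xbp1 and Hoxc4 had no summit within their bodies or 5 kb around them. Pomc, which defines the cell type, lies outside the placed stretches of chromosome 12, and its promoter was not assessed.

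The ACGT core was more frequent at summits than around them. In windows of 120 bp centred on the placed summits, 24% (22.9 to 25.1) held ACGT, against 10.8% (10.3 to 11.4) of windows 1 kb to either side and 15.5% of windows centred on all protein-coding TSSs. Promoter summits held it in 30.3% of cases (28.7 to 32.0), intragenic summits in 16.2% and intergenic summits in 17.1%. TSSs within 1 kb of a summit held it in 25.2% (24.2 to 26.2) and those without in 13.7% (13.4 to 14.1). CpG content moved with these values, since ACGT contains a CpG and bound promoters are rich in it, and its part in the difference was not tested.

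Longer forms of the site were rarer and more unevenly spread. CCACGT, which overlaps the element of the reporter on its other strand, was in 9.28% (8.56 to 10.1) of summit windows, 2.28% of flanks and 3.76% of TSS windows. GCCACGT was in 4.80%, 0.675% and 1.25%, and the whole TGACGTGG in 1.44% (1.16 to 1.78), 0.104% and 0.316%. The palindromic CRE, TGACGTCA, was in 1.56% of summit windows and 0.0693% of flanks. These shares overlap, since the motifs contain each other.

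The same core was found at summits away from promoters, where CpGs were fewer than the 9.27 per window of promoter summits. Intragenic windows held 2.21 CpGs, against 1.55 in their flanks, and intergenic windows 2.38, against 1.33. The part of this difference in the motif shares was not tested. CCACGT was in 7.01% (5.74 to 8.52) of intragenic and 6.54% (5.35 to 7.97) of intergenic windows, against 1.89% and 2.32% of their flanks. Counted per 50 bp and 1000 peaks, it occurred 30.8 times within 100 bp of summits outside promoters and 9.34 times at 300 to 600 bp. For promoter summits the values were 51.5 and 18.3. TGACGTGG changed more, from 4.76 to 0.529 outside promoters and from 6.29 to 0.645 at promoters.

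**Figure D5:**
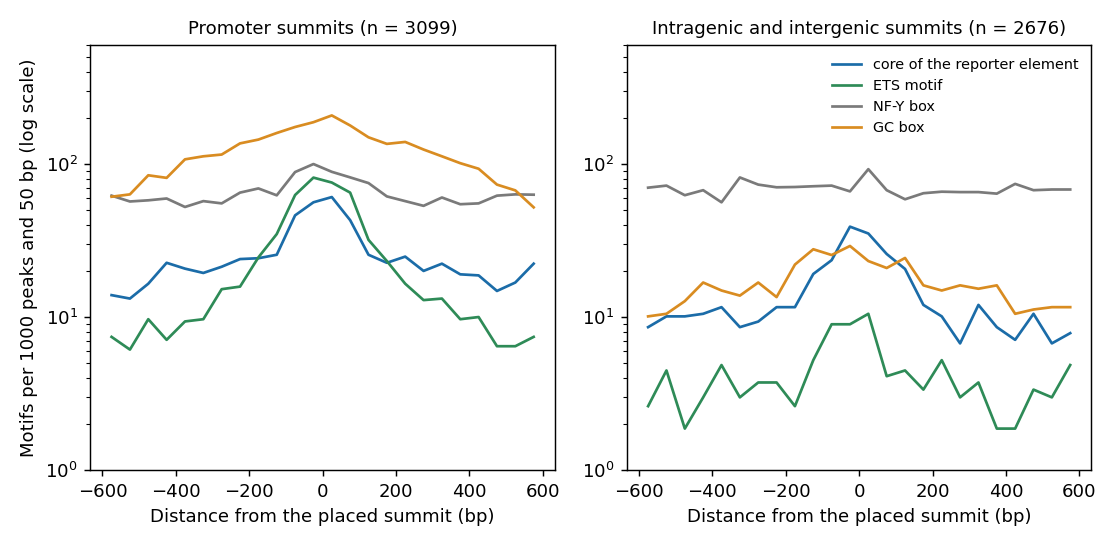
Lines give the number of motifs per 1000 peaks and 50 bp, on a log scale, by distance from the placed summit, for promoter summits and for all others. The core of the reporter element is CCACGT, the ETS motif CCGGAAG, the NF-Y box CCAAT and the GC box GGGCGG, on both strands. The core, the ETS motif and the GC box rise towards the summit in both groups, while the NF-Y box varies little outside promoters.

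The motif was most frequent in the densest peaks. When the placed peaks alone were divided into 10 bins, 111 of 578 windows in bin 1 held CCACGT (interval 16.2% to 22.6%) and 5.02% (3.52 to 7.11) TGACGTGG. In bin 10 the shares were 5.03% (3.52 to 7.12) and 0.347%. Location and base composition changed over the same bins, with 500 of 578 peaks at promoters in bin 1 and 151 of 577 in bin 10, and 9.24 and 3.07 CpGs per window. Among promoter peaks alone, CCACGT was in 20.4% (17.1 to 24.2) of bin 1 and 12% (9.37 to 15.3) of bin 2, and then showed no order, between 7.01% and 11.8% in bins 3 to 10. Among peaks enriched 10-fold or more, 30 of 78 (38.5%, 28.4 to 49.6) held CCACGT, against 8.88% (8.17 to 9.65) below that. By fold enrichment, the first of the peaks with TGACGTGG in the window were at Sec16b, Ube2g2, Srp19, Sec24a, Ptov1, Scfd1, Brd2 and Slc30a5. Slc30a5 encodes a zinc transporter of the early secretory pathway. Hnrnpdl, Zfp9 and Ascc3 were among the others. None of the 8 Casz1 peaks above 10-fold held CCACGT, nor did the promoter peaks of Tbx19 and Mlec.

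Motifs of other factors were also counted. CCGGAAG, the site of ETS factors, was in 15.5% (14.2 to 16.8) of promoter windows and 0.726% of their flanks, and TSSs with a summit held it in 17.6% against 4.59% of TSSs without. GGGCGG, the GC box of Sp factors, was in 33.3% of promoter windows, against 28.6% of all TSS windows, 39.9% of those with a summit and 26.5% of those without. TGACTCA, the AP-1 site, showed the reverse order, with 1.42% (1.06 to 1.90) of promoter, 5.62% (4.49 to 7.01) of intragenic and 4.72% (3.72 to 5.97) of intergenic windows, against 1.92% and 2.0% in the flanks of the last 2. The T-box motif AGGTGTGA was in 0.290%, 1.54% and 1.74%. The NRF1 site was in 0.693% and the ERSE in 0.0693% of all windows.

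The promoter sequences of RefSeq were also compared between groups of genes. They were matched by Ensembl gene identifier, or by gene symbol where that gave no match. Of 145 promoters of secretory pathway genes with a summit, 32.4% held CCACGT in the 300 bp around the TSS, against 23.5% of 119 without a summit. For translation genes it was 15.3% of 98 with and 8.77% of 114 without. These intervals overlap, 25.3 to 40.4 against 16.8 to 31.9 for the secretory pathway and 9.50 to 23.7 against 4.83 to 15.4 for translation. TGACGTGG was in 11 of 145 (7.59%, 4.29 to 13.1) secretory pathway promoters with a summit and 1 of 119 (0.840%, 0.148 to 4.61) without. It was in 1 of 98 (1.02%, 0.180 to 5.56) and 1 of 114 (0.877%, 0.155 to 4.80) translation promoters. The CpG number hardly differed between these 4 groups, 22.1 to 22.9 per promoter. Over all promoters with a summit, 16.9% held CCACGT, against 8.08% of those without.

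Summits outside promoters were spread unevenly over the genome. Per Mb of placed chromosome, their number ran from 0.371 on chromosome X and 0.445 on chromosome 14 to 2.09 on chromosome 11 and 2.51 on chromosome 10, while promoter summits ran from 0.699 to 2.72. On chromosomes 10 and 16, only 41.8% (37.6 to 46.1) and 38.4% (33.0 to 44.1) of summits were at promoters, against 53.7% overall. Their summits outside promoters had median enrichments of 4.04-fold and 4.0-fold. Several genes gathered many such summits as the closest protein-coding gene, 12 for Gse1, 9 each for Irf2bp2 and Tmcc3 and 8 for Rbfox1, beside 13 for Casz1. Copy number of these regions in AtT-20 cells was not measured, and its part was not tested.

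The XBP1 list is much shorter than that of Creb3l2, so the XBP1 peaks were set beside both the whole Creb3l2 list and its densest peaks. Of 232 placed XBP1 summits, 118 (50.9%, 44.5 to 57.2) were at promoters, an interval that includes the 53.7% of all Creb3l2 summits but not the 86.8% (83.5 to 89.5) of the 500 densest peaks, 477 of them placed. CCACGT was in 19.4% of XBP1 windows (14.8 to 25) and the ERSE in 2.59% (1.19 to 5.53), against 9.28% and 0.0693% of Creb3l2 windows, and TGACGTGG in 6.03% (3.63 to 9.87) against 1.44%. The 500 densest Creb3l2 peaks held CCACGT in 19.9% (16.6 to 23.7), close to the XBP1 share, and bin 1 of the placed peaks held TGACGTGG in 5.02%. CCGGAAG was in 5.60% (3.30 to 9.35) against 9.06%. In overlap, 125 Creb3l2 peaks (1.93%) shared at least 1 bp with 124 XBP1 peaks (48.1%). The antibodies and the controls differed (untagged FLAG for Creb3l2, IgG for XBP1). Creb3l2 was expressed in its active form from a retrovirus, while XBP1 was precipitated from AtT-20 cells with an antibody to XBP1 itself. The study also lists more reads for the Creb3l2 library, and a paired-end setting of the peak caller for it alone. A difference between the factors, or in the length of their lists, cannot be told apart from these.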

How the data were processed

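FLAG ChIPseq from AtT-20 cells with cleaved FLAG-Creb3l2 was analysed (1 pooled library). Per the labels and the study's methods, the authors aligned reads with Bowtie to mm9 and called peaks with MACS over FLAG ChIPseq of untagged cells (HOMER is also named, versions not given). The deposited table gives each peak's position, the tag count, a score (-10 log10 of the caller's p-value, at least 50) and the fold ratio over control. The tag counts are not scaled, and library depth is not in the file.

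Placement on GRCm38 used constant shifts per stretch, found with a hidden Markov model that aligns summits with GENCODE M21 protein-coding TSSs (posterior of at least 0.95) and tested on simulated data. No coordinate of a peak on GRCm38 is printed. Small steps within a stretch are not modelled. Summits were assigned to the closest TSS. Bound means a summit within 1 kb. Motifs were counted on both strands in 120 bp windows of GRCm38.

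Named genes are those closest to the 15 densest peaks, up to 4 densest and 3 unbound members of each list, loci tested in the study, the genes for Creb3l2, Xbp1, Tbx19 and Pomc, and Casz1. Not every such gene is printed. Other names in rankings by fold, in exons, at distal sites or among motif-bearing peaks were chosen after their values were seen. Of 1688 listed symbols, 1669 matched. Members and lists were chosen with earlier results of these data known. The translation and spermatogenesis lists are the study's. Python 3.11.15 with numpy 2.4.6, pandas 2.3.3 and statsmodels 0.14.6 was used.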

Additional observations from a re-analysis of the deposited data

How the results depend on the processing

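No paired analysis was possible because the series holds a single Creb3l2 library, and no replicate could be left out. Alternatives were run for 6 shares, for the count of lists above all genes (26, and 24 at 100 bp) and for the share of the densest bin with CCACGT (22.3% when ranked by score). Shares of single lists, longer motifs, chromosomes and XBP1 peaks had none, apart from the CpG classes for lists. The share of summits at promoters (53.7%) was 34.3%, 49.6% and 66.8% with limits of 100 bp, 500 bp and 5 kb, 62.0% above the median score, 64.9% at 5-fold or more, 71.3% above the median of tags per kb, 50.5% with TSSs of protein-coding genes only, 48.7% for peaks left out of the estimate of the shifts and 47.8% of all listed peaks, with those not placed counted as outside. The last 2 were chosen after seeing the data, as were the CpG classes, the 400 bp window and a setting without the Casz1 summits.

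The share of protein-coding genes (18.0%) was 11.1%, 16.8% and 21.8% at the same limits, 11%, 5.82% and 12.9% in the same subsets of peaks, 14.6% when genes with a neighbouring start site closer than 1000 bp were dropped and 28.7% in the 2 upper CpG classes. The share of translation genes (47.7%) was 36.7% at 100 bp, 35.0% above the median score and 15.6% at 5-fold. That of secretory pathway genes (58.4%) was 42.3%, 46.4% and 32.5% there and 49.3% above the median of tags per kb. That of spermatogenesis genes (16%) was 8.37%, 8.87%, 4.19% and 10.1%, and 24.1% in the upper CpG classes. Translation and secretory pathway genes were above all genes, and spermatogenesis genes below, under each of these settings.

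ACGT windows (24%) were 21.8% at peak centres, 27.5%, 32.2% and 29.0% in the same subsets of peaks, and 13.6%, 34.8% and 50.6% with windows of 60, 200 and 400 bp. Wider windows count more bases by construction, and the cause of the other shifts was not tested. Of 56 alternatives, 36 moved a share by more than its counting interval and are given above, and 20 did not. Placement error lowers motif shares in narrow windows by an amount that was not measured. For some peaks the compared estimates of the shift differed by more than 300 bp.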
